A study of Mus musculus with 4 samples.

Results

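The unfolded protein response and the integrated stress response were followed in 36 genes, chosen by name for their place in these pathways and all found among the 23420 gene rows of a count table from 2 mouse keratinocyte lines. The choice was made with earlier results of these data known. The genes were grouped by role, not by their values, into 14 chaperones and folding enzymes of the endoplasmic reticulum (ER), 4 stress sensors and transducers, 4 genes of ER-associated degradation, 6 regulators of the ATF4 branch and 8 ATF4-branch genes of amino acid and folate metabolism. MK2 and MK1 are cultured keratinocyte lines, each given by the labels with its name and cell type alone, and each line was sequenced as 2 biological replicate cultures. The study belongs to work on p63, the transcription factor of stratified epithelia, in mouse and human skin, and the comparison its design allows is MK2 against MK1. No genotype, strain, age, stress treatment, medium or culture day is stated for either line. Each line stands for itself alone, and p-values measure the spread between the cultures of a line, which may be technical in part.

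Proteins that enter the ER are folded by chaperones, among which BiP (Hspa5) also binds the stress sensors IRE1, PERK and ATF6. When unfolded proteins draw BiP away, IRE1 splices the mRNA of Xbp1, ATF6 is cut free in the Golgi, and PERK phosphorylates the initiation factor eIF2α, which slows translation and favours that of ATF4. Other kinases phosphorylate eIF2α on amino acid shortage, viral RNA or haem loss, so that ATF4 targets can rise without ER stress, and this wider response is called the integrated stress response. Keratinocytes engage the ER pathway during differentiation, when secretion and lipid synthesis increase. Read counts per gene do not show splicing of Xbp1, cleavage of ATF6, phosphorylation or translation.

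Most ER chaperones rose in MK2, while Herpud1, Sel1l and the ATF4-branch genes Ddit4 and Ppp1r15a fell. Of the 36 genes, all of which passed the count filter, 16 were called higher in MK2, 5 lower and 15 neither way, where a call is an adjusted p under 0.05 (quasi-likelihood test of edgeR, Benjamini-Hochberg adjusted over 12479 genes, as for every adjusted p below). Together 58.3% of the 36 were called, against 54.6% of all genes tested, so the number of calls alone does not set these genes apart. The share called higher was 44.4%, against 25.9% of all genes, and the share called lower 13.9%, against 28.7%. Beyond 2-fold (edgeR's glmTreat), 2 of the 36 genes were lower, Ddit4 and Herpud1, against 9.94% of all genes, and none was higher, against 3.21%. The median log2 change (MK2 over MK1) was 0.56 over the chaperones and 0.19 over the 14 ATF4-branch genes, against -0.01 over all genes tested. The 2 cultures of MK2 did not overlap those of MK1 in 28 of the 36 genes (19 above, 9 below), against 80.5% of all genes. Without MK1 replicate 1 the counts were 9 higher and 4 lower, and without MK1 replicate 2 they were 7 and 6, while the count over all genes also dropped (1512 higher and 2166 lower, and 1863 and 2494, against 3238 and 3576). All 21 called genes kept their direction in each of the 12 alternative fits. The cultures of the 2 lines overlapped in none of these genes, so leaving a library out could hardly turn a direction.

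**Figure D1:**
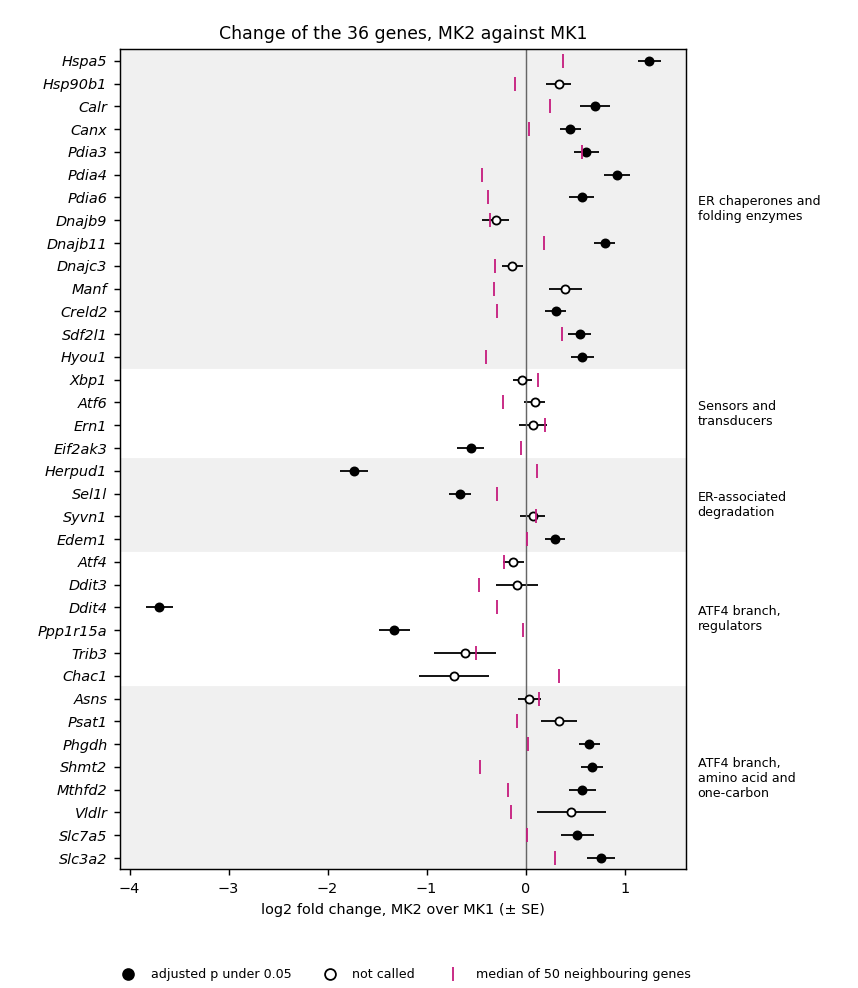
Change of each of the 36 genes in MK2 relative to MK1 as log2 fold change with its standard error (horizontal axis), grouped by role, with filled points for genes called at an adjusted p under 0.05 and a vertical tick for the median change of the 50 nearest tested genes on the chromosome. Chaperones lie mostly right of 0 around their median of 0.56, whereas Ddit4 lies at -3.70, Herpud1 at -1.74 and Ppp1r15a at -1.33.

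Total counts per library ran from 25237391 to 30261111. Levels below are CPM, counts scaled to library size by TMM, or TPM, which also corrects for gene length, and culture 1 of a line stands before culture 2. The keratin pair of basal keratinocytes, Krt5 and Krt14, stood at 7023 CPM or more in every library and was not called (adjusted p = 0.924 and 0.680), and Trp63, which encodes p63, stood at 214 CPM or more. Of 7 basal keratinocyte markers, 1 was higher in MK2, 1 was lower and 5 were not called, and Krt15 differed most within a line, at 27.9 and 0.247 CPM in MK2 and 4.77 and 4.47 CPM in MK1. Of 10 markers of B lymphocytes and plasma cells, cells in which the ER response is known to be strong, 9 could be tested and all 9 were lower in MK2. Their summed level was 1.75 and 2.01 CPM in the MK2 cultures and 38.5 and 38.2 CPM in the MK1 cultures, with Cd79b and Ms4a1 among the markers at 0 counts in MK2. The part of these transcripts in the differences reported here was not tested, and in such bulk RNA fewer cells of a type and less RNA per cell cannot be told apart. The fibroblast genes Dcn and Lum, the melanocyte gene Dct and the endothelial gene Cdh5 had 0 counts in all 4 libraries. Summed levels of the 7 fibroblast, 5 melanocyte and 4 endothelial markers were 0.636 to 1.06, 2.98 to 3.28 and 25.4 to 27.4 CPM in MK2, against 2.72 to 3.52, 2.68 to 2.70 and 14.9 to 17.8 CPM in MK1. The endothelial sum was mostly Kdr.

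**Figure D2:**
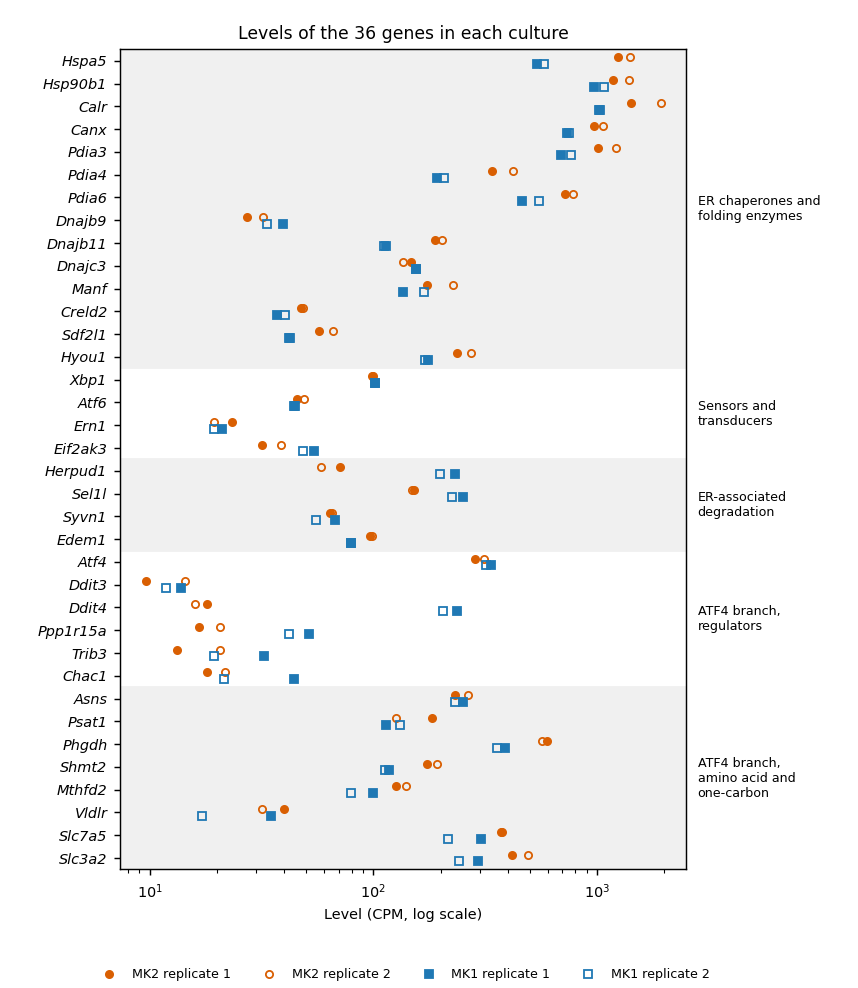
Level of each of the 36 genes in the 4 cultures in CPM on a log axis, with circles for MK2 and squares for MK1, filled for replicate 1 and open for replicate 2. The circles of Hspa5 lie at 1245 and 1408 CPM, right of the squares at 538 and 578 CPM, and those of Ddit4 at 18.0 and 16.0 CPM, far left of the squares at 237 and 204 CPM.

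Most chaperones and folding enzymes of the ER rose in MK2. Of 14, 10 were higher in MK2, none was lower and 4 were not called, a share of 71.4% higher, against 25.9% of all genes. Their summed length-scaled level was 6120 and 7215 TPM in the MK2 cultures and 4372 and 4561 TPM in the MK1 cultures, so that the groups did not overlap. The count of 10 was 3 without MK1 replicate 1 and 5 without MK1 replicate 2, and it lay between 9 and 11 in the other alternative fits. Hspa5, Pdia4 and Dnajb11 were called in all 12 of them.

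Hspa5, which encodes BiP, the ER member of the Hsp70 family (chromosome 2, 34772090 to 34776529, mm10, as for all positions), stood at 1245 and 1408 CPM in the MK2 cultures and at 538 and 578 CPM in the MK1 cultures. Both MK2 cultures thus lay well above both MK1 cultures, with means of 1327 ± 115.5 CPM in MK2 and 558 ± 28.6 CPM in MK1 (SD, n = 2 each). The difference was the largest rise among the 36 genes (log2 change 1.25 ± 0.12 SE, 2.38-fold, adjusted p = 1.63e-04). The test for a change beyond 2-fold was not passed (adjusted p = 0.0606). It was passed in 2 of the 12 alternative fits, 1 of them without MK2 replicate 1 (log2 change 1.34). The other, a block with crossed replicate numbers, was added after seeing the data. The 50 genes nearest to Hspa5 had a median log2 change of 0.37. On the length-corrected scale Hspa5 stood at 961 and 1066 TPM in MK2, above Hsp90b1 at 864 and 997 TPM with overlapping cultures, and at 435 and 457 TPM in MK1, below Hsp90b1 at 739 and 806 TPM. Calr was the most abundant of the 36 genes in both lines, at 1472 and 1959.7 TPM in MK2 and 1125 and 1085 TPM in MK1.

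The partners of BiP did not all change alike. Dnajb11 (ERdj3), a J-domain co-chaperone that hands unfolded clients to BiP (chromosome 16, 22857845 to 22879634), stood at 189 and 203 CPM in MK2, against 114 and 112 CPM in MK1 (log2 change 0.80 ± 0.10, adjusted p = 7.44e-04). Sdf2l1, which binds Dnajb11, stood at 56.9 and 66.3 CPM in MK2, against 42.5 and 42.0 CPM in MK1 (log2 change 0.54 ± 0.12, adjusted p = 0.00668). The genes nearest to Sdf2l1 had a median of 0.37. Hyou1 (GRP170), a nucleotide exchange factor of BiP, stood at 236 and 274 CPM in MK2, against 175 and 169 CPM in MK1 (log2 change 0.57 ± 0.12, adjusted p = 0.00507). All 3 genes were higher in both MK2 cultures than in either MK1 culture, while 80.5% of all genes tested showed no overlap in 1 direction or the other. The 2 other J-domain partners were not called: Dnajb9 (ERdj4), which is known as a target of spliced Xbp1, had 27.1 and 32.03 CPM in MK2 and 39.6 and 33.4 CPM in MK1 (adjusted p = 0.104), and Dnajc3 (P58IPK) had 147 and 136 CPM in MK2 and 156 and 155 CPM in MK1 (adjusted p = 0.305). With MK2 replicate 2 left out, Dnajb9 was called lower (adjusted p = 0.0465, log2 change -0.43). Sdf2l1 was not called once MK1 replicate 1 or 2 was left out (adjusted p = 0.0647 and 0.0621), and Hyou1 was not either (adjusted p = 0.0576 and 0.0627).

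The protein disulfide isomerases on the list of chaperones and folding enzymes, which form and shuffle disulfide bonds, were all 3 higher in MK2. Related enzymes outside that list did not all follow. P4hb and Erp44 were higher (log2 change 0.55 and 0.45, adjusted p = 0.00818 and 0.0290). Pdia5 and Txndc5 were not called (log2 change 0.57 and 0.06, adjusted p = 0.0542 and 0.653). Pdia4 (ERp72, chromosome 6, 47796141 to 47813512) stood at 337 and 420.1 CPM in MK2, against 193 and 206 CPM in MK1 (log2 change 0.92 ± 0.13, adjusted p = 0.00116), although its 50 nearest genes had a median of -0.44. Pdia3, the isomerase that works with calnexin and calreticulin, stood at 1006 and 1215 CPM in MK2, against 689.9 and 762 CPM in MK1 (log2 change 0.61 ± 0.13, adjusted p = 0.00586). Its 50 nearest genes on chromosome 2 had a median of 0.57, so that its rise was close to that of its neighbourhood. Pdia6 stood at 717 and 783 CPM in MK2, against 460.1 and 552 CPM in MK1 (log2 change 0.57 ± 0.13, adjusted p = 0.00748), with a neighbourhood median of -0.38. With MK1 replicate 1 left out, neither Pdia3 nor Pdia6 was called (adjusted p = 0.0866 and 0.0973). Exons of Pdia6 and Atp6v1c2 on the opposite strand share 50 bases and those of Pdia4 and Mir704 share 14, so a few reads could belong to either.

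Calreticulin and calnexin, the lectins that hold newly made glycoproteins in the folding cycle, were also higher. Calr stood at 1417 and 1923 CPM in MK2, against 1033 and 1019 CPM in MK1 (log2 change 0.70 ± 0.15, adjusted p = 0.00732). Canx stood at 969 and 1060.2 CPM in MK2, against 735 and 748 CPM in MK1 (log2 change 0.45 ± 0.11, adjusted p = 0.00931). The MK2 cultures differed more from each other in Calr than in Canx, and neither gene's lines overlapped, as for 80.5% of all genes tested. Both calls were lost when MK1 replicate 1 was left out (adjusted p = 0.0788 for Calr and 0.100002 for Canx) and when MK1 replicate 2 was (adjusted p = 0.0774 and 0.0826). Hsp90b1 (GRP94), the Hsp90 of the ER, had 1181 and 1389.7 CPM in MK2 and 964 and 1076 CPM in MK1 and was not called (adjusted p = 0.0539), although it was with no low-count filter (adjusted p = 0.0421), in DESeq2 (adjusted p = 0.0345) and with MK2 replicate 1 left out (adjusted p = 0.0128).

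Of the small stress-inducible ER proteins, Creld2 stood at 47.4 and 48.3 CPM in MK2, against 37.1 and 40.4 CPM in MK1 (log2 change 0.30 ± 0.11, adjusted p = 0.0450). That call was among the least firm, since it ended without any 1 of the 4 libraries (adjusted p between 0.0670 and 0.259), in DESeq2 (adjusted p = 0.0762), with library size alone (adjusted p = 0.0547), with upper quartile scaling (adjusted p = 0.0873) and with the replicate block (adjusted p = 0.0779). Manf, a trophic factor that is kept in the ER until stress releases it, had 173 and 227 CPM in MK2 and 136 and 168 CPM in MK1 and was not called (adjusted p = 0.0792). It was called with MK2 replicate 1 left out (adjusted p = 0.00952, log2 change 0.59) and with the replicate block (adjusted p = 0.0352).

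The promoters of these genes are shown because they carry the ER stress response element (ERSE), through which ATF6 and XBP1 act together with NF-Y. The element was searched as CCAAT and CCACG with any 9 bases between them, on both strands, in RefSeq windows (GRCm38.p6, the assembly also called mm10) from 250 bases before to 50 bases after each start site. Windows were at hand for 32 of the 36 genes and for 12 of the 14 chaperones, and those of Manf, Hyou1, Atf6 and Slc7a5 were not used here. An ERSE occurred in 7 of the 12 chaperone windows, in 1 of 4 windows of degradation genes (Syvn1) and in none of the 13 ATF4-branch genes with a window, against 0.137% of all genes (37 of 27025). Many of the chaperones are textbook carriers of this element, so its frequency is not independent of how such lists are drawn up. The whole window of Hspa5 follows, with the ERSE in capitals, 65 to 47 bases before the start site.
Hspa5, chr2:34771840-34772139 (+ strand): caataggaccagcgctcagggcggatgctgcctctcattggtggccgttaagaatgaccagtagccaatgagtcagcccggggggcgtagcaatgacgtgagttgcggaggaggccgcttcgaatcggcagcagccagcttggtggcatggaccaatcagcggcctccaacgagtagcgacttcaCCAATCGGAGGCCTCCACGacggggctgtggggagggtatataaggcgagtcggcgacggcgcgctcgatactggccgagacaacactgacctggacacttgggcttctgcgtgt

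In the sites below, with 10 flanking bases on each side and read along the gene's strand, capitals mark the 2 parts of the element, and CGTGG with ATTGG is the same element on the other strand.
Hsp90b1 upstream copy, chr10:86705628-86705666 (- strand): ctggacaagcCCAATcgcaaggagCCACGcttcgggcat
Hsp90b1 downstream copy, chr10:86705523-86705561 (- strand): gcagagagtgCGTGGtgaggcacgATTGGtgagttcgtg
Calr, chr8:84847065-84847103 (- strand): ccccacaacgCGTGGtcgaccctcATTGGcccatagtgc
Canx, chr11:50325790-50325828 (- strand): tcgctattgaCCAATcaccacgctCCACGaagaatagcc
Pdia6, chr12:17266481-17266519 (+ strand): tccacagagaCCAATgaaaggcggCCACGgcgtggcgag
Dnajc3, chr14:118937817-118937855 (+ strand): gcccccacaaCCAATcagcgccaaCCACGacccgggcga
Creld2, chr15:88819510-88819548 (+ strand): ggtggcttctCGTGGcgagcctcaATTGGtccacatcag
Syvn1, chr19:6046522-6046560 (+ strand): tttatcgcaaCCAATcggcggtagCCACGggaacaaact
Hsp90b1 was the gene with 2 copies. Presence of the element did not sort the chaperones by their change. Of the 7 genes with it, 5 were higher and 2 (Hsp90b1 and Dnajc3) were not called. Of the 5 genes with a window but no ERSE match, 4 were higher and 1 (Dnajb9) was not called. Those 4 include Dnajb11, which held a related element, ERSE-II, given further below. Only exact matches were counted, so a gene without a match may still hold a variant of the element. These letters are a description of the sequence and show no binding.

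Transcripts of the stress sensors differed little, with PERK as the exception. Of the 4 genes, 1 was lower and 3 were not called. The 25% lower in this short list was near the 28.7% of all genes tested. Xbp1, the transcription factor activated by IRE1, had 98.3 and 99.96 CPM in MK2 and 102 and 101 CPM in MK1 (log2 change -0.03 ± 0.10, adjusted p = 0.800). Atf6 had 45.5 and 49.1 CPM in MK2 and 44.1 and 44.7 CPM in MK1 (log2 change 0.09 ± 0.11, adjusted p = 0.488), and Ern1, which encodes IRE1α, had 23.3 and 19.4 CPM in MK2 and 21.0 and 19.5 CPM in MK1 (log2 change 0.08 ± 0.14, adjusted p = 0.677). The small difference of Ern1 turned negative without MK2 replicate 1 (log2 change -0.055). Eif2ak3, which encodes PERK (chromosome 6, 70844527 to 70905240), stood lower in both MK2 cultures, at 31.7 and 38.5 CPM, against 54.5 and 48.6 CPM in MK1 (log2 change -0.56 ± 0.13, adjusted p = 0.0103). Leaving out MK1 replicate 1 ended that call (adjusted p = 0.103).

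Genes of ER-associated degradation, by which misfolded proteins are drawn back to the cytosol for the proteasome, changed in opposite directions. Of 4, 2 were lower, 1 was higher and 1 was not called. As shares of this short list, 50% were lower, against 28.7% of all genes, and 25% higher, against 25.9%. Herpud1 (HERP), a membrane protein that organises the HRD1 ubiquitin ligase complex (chromosome 8, 94386500 to 94395358), stood at 70.6 and 58.4 CPM in MK2, against 232 and 198 CPM in MK1. Both MK2 cultures were thus far below both MK1 cultures, with means of 64.5 ± 8.60 CPM in MK2 and 215 ± 24.5 CPM in MK1 (SD, n = 2 each; 3.33-fold lower in MK2, log2 change -1.74 ± 0.14, adjusted p = 9.72e-05, and 0.00166 in the test beyond 2-fold), and the call beyond 2-fold held in all 12 alternative fits. Its 50 nearest genes had a median of 0.11. Sel1l, the adaptor of HRD1, stood at 152 and 149 CPM in MK2, against 252 and 224 CPM in MK1 (log2 change -0.66 ± 0.11, adjusted p = 0.00210). Syvn1, which encodes HRD1 itself, had 64.0 and 65.1 CPM in MK2 and 67.2 and 55.6 CPM in MK1, with overlapping lines and no call (adjusted p = 0.651), a difference that turned negative without MK1 replicate 2 (log2 change -0.062). Its exons share 89 bases with those of Mrpl49 on the opposite strand. Edem1, a mannosidase-like protein that marks misfolded glycoproteins for removal, stood at 96.6 and 99.0 CPM in MK2, against 79.6 and 79.8 CPM in MK1 (log2 change 0.30 ± 0.10, adjusted p = 0.0398), a call that ended without each of the 4 libraries in turn (adjusted p between 0.0525 and 0.182), with upper quartile scaling (adjusted p = 0.0808) and with the replicate block (adjusted p = 0.0779).

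Hspa5 and Herpud1 are both classical targets of the ER response, and they moved in opposite directions. The window of Herpud1 is printed beside that of Hspa5 for this reason. It held no ERSE but the related ERSE-II (ATTGG and CCACG with any 1 base between them), which occurred in 12 of 27025 genes, and further upstream a C/EBP-ATF response element, the site bound by ATF4 with C/EBP factors. Capitals mark the C/EBP-ATF element first, 113 to 105 bases before the start site, and then the ERSE-II, 52 to 42 bases before it.
Herpud1, chr8:94386179-94386478 (+ strand): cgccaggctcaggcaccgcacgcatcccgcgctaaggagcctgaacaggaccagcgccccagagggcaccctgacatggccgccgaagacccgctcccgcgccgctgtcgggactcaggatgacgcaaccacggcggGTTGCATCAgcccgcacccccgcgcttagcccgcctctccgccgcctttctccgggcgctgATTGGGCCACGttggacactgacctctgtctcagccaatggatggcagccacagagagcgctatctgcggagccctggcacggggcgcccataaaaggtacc
Among the other 35 genes ERSE-II occurred in Dnajb11, which was higher in MK2, where it lies just after the start site:
Dnajb11, chr16:22857842-22857872 (+ strand): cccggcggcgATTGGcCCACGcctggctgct

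The ATF4 branch is given by role. Among its 6 regulators and feedback genes, 2 were lower in MK2, none was higher and 4 were not called, with a median log2 change of -0.67. The share lower was 33.3%, close to the 28.7% of all genes tested. Among its 8 genes of amino acid transport, serine synthesis and folate metabolism, 5 were higher, none was lower and 3 were not called, with a median of 0.55. The share higher was 62.5%, against 25.9% of all genes tested, and the difference between the 2 lists was not tested. Summed over the 6 regulators the level was 429 and 476 TPM in MK2, against 882 and 745 TPM in MK1, and over the 8 metabolic genes it was 1813 and 1821 TPM in MK2, against 1426 and 1231 TPM in MK1. Over all 14 genes the sums overlapped, with 2242 and 2297 TPM in MK2 and 2308 and 1976 TPM in MK1. The median over the 14 genes was 0.0041 without MK1 replicate 2, and the count of higher genes, 5 with all libraries, was then 2.

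Atf4 itself, the transcription factor of the branch, had 286 and 313 CPM in MK2 and 336 and 318 CPM in MK1 and was not called (log2 change -0.12 ± 0.11, adjusted p = 0.359). ATF4 is controlled mainly at translation, which counts do not measure. Ddit4 (REDD1), an inhibitor of mTORC1 that also answers to p53, hypoxia and glucocorticoids (chromosome 10, 59949675 to 59951770), showed the largest change of the 36 genes. It stood at 18.0 and 16.0 CPM in MK2, against 237 and 204 CPM in MK1, so that the cultures of each line lay close together and the lines far apart, with means of 17.0 ± 1.38 CPM in MK2 and 221 ± 23.0 CPM in MK1 (SD, n = 2 each; 12.99-fold lower, log2 change -3.70 ± 0.14, adjusted p = 3.20e-06, and 6.16e-06 beyond 2-fold). Its 50 nearest genes had a median of -0.29. Ppp1r15a (GADD34), the phosphatase subunit that reverses eIF2α phosphorylation (chromosome 7, 45522917 to 45526268), stood at 16.6 and 20.6 CPM in MK2, against 51.6 and 41.8 CPM in MK1 (2.51-fold lower, log2 change -1.33 ± 0.16, adjusted p = 5.40e-04). It did not pass the test beyond 2-fold (adjusted p = 0.0740), although it did in 3 of the 12 alternative fits. These were without MK2 replicate 2 (log2 change -1.49), with upper quartile scaling (adjusted p = 0.0444) and with crossed replicate numbers as a block. The last of these fits was added after seeing the data.

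The remaining regulators overlapped between the lines. Chac1, which breaks down glutathione and is among the most ATF4-dependent genes known, had 18.1 and 21.6 CPM in MK2 and 44.1 and 21.6 CPM in MK1, so that 1 MK1 culture stood apart from the other 3 cultures (log2 change -0.73 ± 0.35, adjusted p = 0.139). Trib3, a pseudokinase that feeds back on ATF4, had 13.2 and 20.6 CPM in MK2 and 32.3 and 19.4 CPM in MK1 (log2 change -0.61 ± 0.31, adjusted p = 0.151). With MK1 replicate 2 left out, Chac1 was called lower (adjusted p = 0.0104, log2 change -1.15), as it was in DESeq2 (adjusted p = 0.0392), and with MK2 replicate 2 left out Trib3 was called lower (adjusted p = 0.0294, log2 change -0.97). Ddit3, which encodes the pro-apoptotic factor CHOP, had 9.62 and 14.4 CPM in MK2 and 13.8 and 11.8 CPM in MK1 (log2 change -0.09 ± 0.22, adjusted p = 0.754). The sign of that difference turned without MK1 replicate 1 (log2 change 0.024) or MK2 replicate 1 (log2 change 0.18), and its exons share 68 bases with those of Mars on the opposite strand, a gene that was lower in MK2.

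The metabolic genes that rose serve serine synthesis, folate metabolism and amino acid uptake. Phgdh, the entry enzyme of serine synthesis (chromosome 3, 98313171 to 98339969), stood at 594 and 569.9 CPM in MK2, against 389 and 357 CPM in MK1 (log2 change 0.64 ± 0.11, adjusted p = 0.00216), and its call held in all 12 alternative fits. Shmt2 and Mthfd2 carry serine into mitochondrial folate metabolism. Shmt2 stood at 173 and 193 CPM in MK2, against 118 and 112 CPM in MK1 (log2 change 0.67 ± 0.11, adjusted p = 0.00190), with a neighbourhood median of -0.47 and with 34 exon bases shared with Ndufa4l2 on the opposite strand. Mthfd2 stood at 127 and 139 CPM in MK2, against 99.7 and 79.1 CPM in MK1 (log2 change 0.57 ± 0.14, adjusted p = 0.0103). The cultures of the lines did not overlap for any of these genes, as for 80.5% of all genes tested. Slc3a2 and Slc7a5 encode the heavy and light chains of the leucine transporter LAT1. Slc3a2 stood at 415 and 490.3 CPM in MK2, against 295 and 241 CPM in MK1 (log2 change 0.76 ± 0.14, adjusted p = 0.00349), and Slc7a5 at 371 and 376 CPM in MK2, against 303 and 216 CPM in MK1 (log2 change 0.52 ± 0.16, adjusted p = 0.0314). None of Mthfd2, Slc3a2 and Slc7a5 was called with MK1 replicate 2 left out (adjusted p = 0.0973, 0.0509 and 0.180), which had the lowest level of each.

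Asns, Psat1 and Vldlr overlapped between the lines. Asns, asparagine synthetase and a standard readout of the amino acid response, had 232 and 264 CPM in MK2 and 252 and 231 CPM in MK1 (log2 change 0.04 ± 0.12, adjusted p = 0.804). The sign of its difference turned with upper quartile scaling (log2 change -0.020) and without MK1 replicate 2 (-0.028) or MK2 replicate 2 (-0.057). Psat1, the second enzyme of serine synthesis, had 183 and 126 CPM in MK2 and 114 and 131 CPM in MK1 (adjusted p = 0.165), and was called higher with MK2 replicate 2 left out (adjusted p = 0.00552, log2 change 0.58). Vldlr, a lipoprotein receptor, had 39.9 and 31.7 CPM in MK2 and 34.8 and 17.1 CPM in MK1 (adjusted p = 0.316), and was called higher with MK1 replicate 1 left out (adjusted p = 0.0227, log2 change 1.06).

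C/EBP-ATF response elements are shown for the ATF4 branch because ATF4 acts through them. The element was searched as TGATGNAAN on both strands, which includes its amino acid response form TGATGAAAC, and was found in 4 of 13 ATF4-branch genes with a window, in Herpud1 and in 1215 of the 27025 genes with a window. In the sites below capitals mark the element, with 10 flanking bases on each side, read along the gene's strand.
Asns, chr6:7693214-7693242 (- strand): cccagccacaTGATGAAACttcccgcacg
Chac1, chr2:119351038-119351066 (+ strand): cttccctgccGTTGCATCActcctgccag
Trib3, chr2:152344029-152344057 (- strand): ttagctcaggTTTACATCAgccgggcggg
Vldlr, chr19:27216809-27216837 (+ strand): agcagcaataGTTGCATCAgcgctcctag
Asns had the element as TGATGAAAC, 23 to 15 bases before the start site. None of the 4 ATF4-branch genes with a match was called, and the 5 that rose and the 2 that fell held none in the windows used, among which Slc7a5 had no window. The cyclic AMP response element TGACGTCA occurred in Ppp1r15a alone of the genes with a window, against 2.03% of all genes, and the UPRE core TGACGTGG in none, against 0.714% of all genes.

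ATF4-branch genes also differed between the cultures of 1 line. In MK1, 13 of the 14 were lower in replicate 2 than in replicate 1, with a median log2 difference (replicate 2 minus replicate 1) of -0.25, whereas 6236 of all 12479 tested genes were lower. Chac1, Vldlr and Trib3 differed most, by -1.03, -1.02 and -0.74, and Psat1 was the exception, at 0.20. Of the 24 tested genes on the list of other ATF4 and integrated stress response genes, 17 were lower in that culture, with a median of -0.20. In MK2, 10 of the 14 were higher in replicate 2, with a median of 0.14, and Trib3 and Ddit3 differed most, by 0.64 and 0.58. Chaperones differed between the MK2 cultures, where 13 of 14 were higher in replicate 2, with a median of 0.22, against 49.4% of all genes, and less so between the MK1 cultures, where 8 of 14 were higher, with a median of 0.06. The chaperone median minus the ATF4-branch median was 0.37 between the lines (MK2 over MK1), 0.31 between the MK1 cultures and 0.07 between the MK2 cultures. Each of these differences between cultures rests on 1 library against 1 and has no replicate check.

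**Figure D3:**
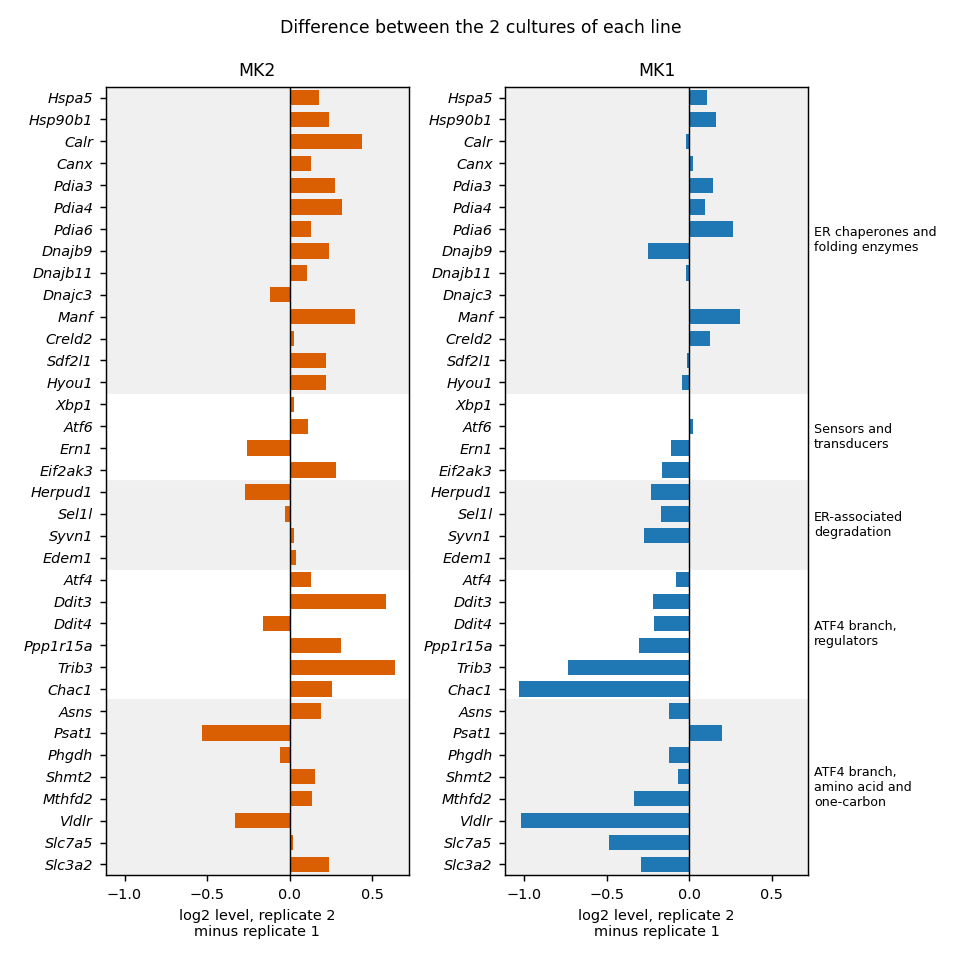
Difference in log2 level between replicate 2 and replicate 1 for each of the 36 genes, in MK2 (left) and in MK1 (right), with genes grouped by role from top to bottom. In MK1 the bars of 13 of 14 ATF4-branch genes point left, down to -1.03 for Chac1, while in MK2 those of 13 of 14 chaperones point right.

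Further genes of the same pathways, none of them among the 36, were read on 4 lists. Of the 68 tested, 50% were called, against 54.6% of all genes, with 39.7% higher, against 25.9%, and 10.3% lower, against 28.7%. Of 22 other ER folding and response genes, 21 were tested, 9 were higher, 2 lower and 10 not called, with a median log2 change of 0.31. As shares, 42.9% were higher and 9.52% lower, against 25.9% and 28.7% of all genes. Sec61b, a subunit of the translocon through which proteins enter the ER, stood at 90.3 and 106 CPM in MK2, against 25.9 and 32.5 CPM in MK1 (log2 change 1.75 ± 0.15, adjusted p = 1.25e-04), in a stretch of chromosome 4 whose 50 nearest genes had a median of 0.90. Creb3l2, an ER-bound transcription factor, had a log2 change of 0.69 (adjusted p = 0.00373, and 0.0561 with MK1 replicate 1 left out). Ero1l, the oxidase that recharges disulfide isomerases, was lower, at 66.0 and 75.7 CPM in MK2, against 132 and 122 CPM in MK1 (log2 change -0.84 ± 0.12, adjusted p = 9.92e-04), and so was Mbtps1, the protease that cuts ATF6 (log2 change -0.53, adjusted p = 0.00796, and 0.0922 with MK1 replicate 1 left out). Of 12 other degradation genes, 11 were tested, 5 were higher, 1 was lower and 5 were not called, with a median of 0.21. The shares were 45.5% higher and 9.09% lower, against 25.9% and 28.7% of all genes. The segregase Vcp and the ubiquitin-conjugating enzyme Ube2j1 had log2 changes of 0.94 and 0.59, next to neighbourhood medians of 0.54 and 0.48 on chromosome 4. The lectin Os9 had a log2 change of -0.68 (adjusted p = 0.0133, and 0.119 with MK1 replicate 1 left out).

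Other ATF4 and integrated stress response genes included changes larger than that of Hspa5. Of 26, 24 were tested, 10 were higher, 2 lower and 12 not called, with a median of 0.30. The shares were 41.7% higher and 8.33% lower, against 25.9% and 28.7% of all genes, and 50% called, against 54.6%. Slc7a11, the cystine transporter, stood at 66.9 and 82.5 CPM in MK2, against 7.80 and 5.21 CPM in MK1 (11.4-fold higher, log2 change 3.52 ± 0.21, adjusted p = 5.12e-05), and Cth, which makes cysteine from cystathionine, at 41.1 and 53.3 CPM in MK2, against 13.9 and 19.0 CPM in MK1 (log2 change 1.52 ± 0.19, adjusted p = 8.52e-04). Sesn2, a sestrin that restrains mTORC1 and also answers to p53, stood at 17.4 and 13.9 CPM in MK2, against 53.9 and 47.0 CPM in MK1 (3.23-fold lower, log2 change -1.69 ± 0.15, adjusted p = 1.43e-04). All 3 genes passed the test beyond 2-fold (adjusted p = 1.24e-04, 0.0308 and 0.00314). Of 12 cytosolic aminoacyl-tRNA synthetases, which load amino acids onto tRNA and are ATF4 targets in part, 3 were higher, 2 lower and 7 not called, with a median of 0.12. The share higher was 25%, against 25.9% of all genes, and the share called 41.7%, against 54.6%. Tars and Eprs had log2 changes of 0.68 and 0.61, and Mars and Iars of -0.64 and -0.39, the call of Iars ending without MK1 replicate 1 (adjusted p = 0.205).

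Chaperones of other compartments were set beside those of the ER. Of 9 mitochondrial chaperones and proteases, 7 were higher, none was lower and 2 were not called. That is 77.8% higher, against 25.9% of all genes tested. Their median log2 change was 0.47, close to the 0.56 of the ER chaperones. The chaperonin Hspd1 stood at 935 and 852 CPM in MK2, against 423 and 513 CPM in MK1 (log2 change 0.93 ± 0.13, adjusted p = 9.56e-04), and the protease subunit Afg3l2 had a log2 change of 0.59. Of 11 cytosolic heat shock proteins, 5 were higher, 1 was lower and 5 were not called, with a median of 0.14. Here 45.5% were higher and 9.09% lower, against 25.9% and 28.7% of all genes tested. The co-chaperone Dnaja1 had a log2 change of 0.82, next to a neighbourhood median of 0.59 on chromosome 4. Hspa4 had a log2 change of 0.54 and was not called once MK1 replicate 1 or 2 was left out. The rise of ER chaperones thus had a counterpart in mitochondrial ones, and whether the 2 lists differ was not tested. Without MK1 replicate 1 the pathway lists together counted 9 higher and 3 lower, and without MK1 replicate 2 they counted 12 and 7, against 27 and 7 with all libraries, and the 20 genes of the 2 comparison lists counted 4 higher without either of these libraries, against 12.

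**Figure D4:**
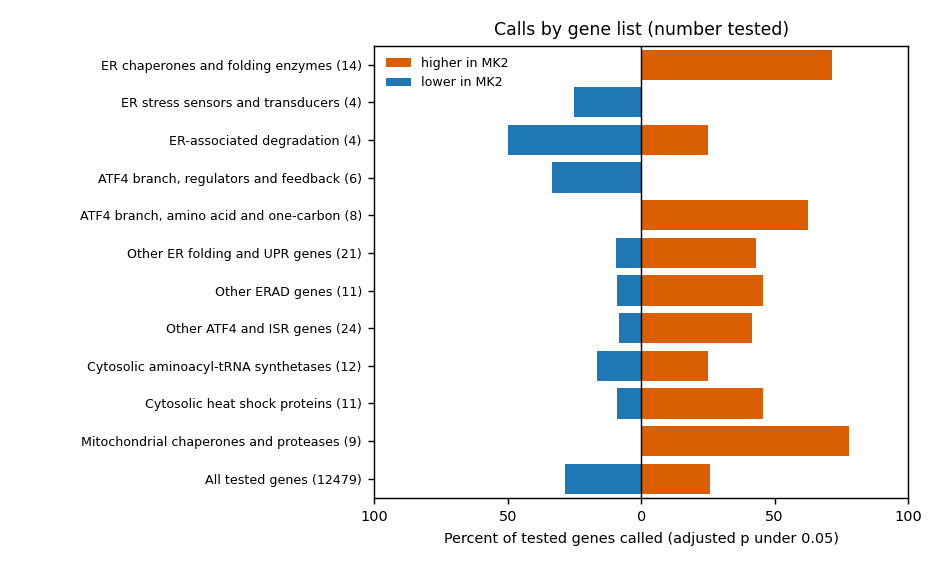
Percent of the tested genes of each list that were called higher in MK2 (right of 0) or lower in MK2 (left of 0) at an adjusted p under 0.05, with the number tested in parentheses. ER chaperones reach 71.4% higher and mitochondrial chaperones 77.8%, against 25.9% of all tested genes. ATF4-branch regulators reach 33.3% lower, close to the 28.7% of all tested genes.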

How the data were processed

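Total RNA of 2 cultures each of the lines MK2 and MK1 was sequenced after library preparation with an Illumina TruSeq kit, per the labels' protocols. The authors deposited raw read counts per gene, not normalised: per the file headers, TopHat alignments were counted over exons by gene name with featureCounts 1.4.6-p4 and the UCSC mm10 annotation, while the submitters' processing notes give featureCounts 1.5.0, TopHat2 2.0.13, Bowtie2 2.2.6 and DESeq2 1.10.1. The header's command sets no strand option, so reads of overlapping genes on opposite strands are uncertain. Columns were matched by the names in the sample titles, and 0 columns lacked a sample. Gene lengths in bases were taken from the same deposited table for TPM.

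Genes were tested with edgeR 4.0.16 (R 4.3.3): filterByExpr with a minimum count of 10, TMM scaling, a robust quasi-likelihood F test of MK2 against MK1, two-sided, with Benjamini-Hochberg adjustment at 0.05, and glmTreat at a log2 change of 1. Differences between cultures used log2 CPM with a prior count of 2. The 36 genes and all lists were chosen with earlier results of these data known, so no p-value was adjusted over a list alone and no list was tested. All 36 genes were accounted for, and of each further list up to 2 called genes per direction with the largest change at 10 CPM or more were named. The fit was checked on simulated data in which few genes changed, equally often up and down. These data differ from that setting, so the check does not cover the scaling here. Alternatives covered scaling, count filters, DESeq2 1.42.0, each library left out in turn and the replicate number as a block. A block with crossed replicate numbers was added after seeing the data and is counted among the 12. Promoter windows were those of RefSeq on GRCm38.p6. Counts of replicates differed beyond sampling noise (median chi-square of a gene 4.28 in MK2 and 2.88 in MK1, against 0.455 for counting error alone), so each library was counted as its own sample.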

Additional observations from a re-analysis of the deposited data

How the results depend on the processing

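Of the 21 called genes among the 36, 9 kept their call in all 12 alternative fits, and those that lost it did so mostly without 1 of the MK1 libraries, as the report gives gene by gene. With 1 library left out in turn, genes called over the whole table ranged from 1512 to 3219 higher and from 2166 to 3622 lower, against 3238 and 3576. The 36 genes then ranged from 7 to 16 higher and from 4 to 7 lower, the chaperones from 3 to 11 higher and from 0 to 1 lower, and the ATF4 branch from 2 to 6 higher and from 2 to 3 lower. Beyond 2-fold the range was 0 to 1 higher and 2 to 3 lower. The ATF4-branch median ranged from 0.0041 to 0.22, the chaperone median from 0.45 to 0.65 and their difference from 0.22 to 0.55, and the further pathway lists ranged from 9 to 29 higher and from 3 to 9 lower. These fits have 1 library in 1 line, whose spread is taken from the other line. With the replicate block, which pairs cultures by number, 15 of the 36 genes were higher and 5 lower, and it changed the calls of Manf, Creld2 and Edem1. Replicate deviations correlated at -0.16 across 11400 genes between the lines. With 2 cultures per line this value cannot decide whether the labels' numbers pair the cultures, and the main fit used no pairing. A block with crossed numbers, added after seeing the data, gave 18 higher and 8 lower of the 36, 1 chaperone and 4 ATF4-branch genes lower, and 1 gene higher and 3 lower beyond 2-fold. Upper quartile scaling gave 3 lower beyond 2-fold. The median of all genes was -0.07 there, against -0.01 with TMM. Small differences of Asns, Ddit3, Ern1, Syvn1, Krt5 and Krt14 changed sign in some fits and were called in none: Asns was at -0.020 with upper quartile scaling, and with 1 library left out in turn Asns ranged from -0.057 to 0.13, Ddit3 from -0.41 to 0.18, Ern1 from -0.055 to 0.20, Syvn1 from -0.062 to 0.21, Krt5 from -0.19 to 0.14 and Krt14 from -0.20 to 0.069. Genes near 10 CPM such as Ddit3 rest on the fewest counts.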
